A study of Homo sapiens with 9 samples.

Results

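Serine palmitoyltransferase and the enzymes that follow it on the way to ceramide were described here through 9 genes, named by symbol and matched to 9 of the 62703 gene identifiers in the deposited counts. The members are the large subunits SPTLC1, SPTLC2 and SPTLC3, the small subunit SPTSSA, the regulators ORMDL1, ORMDL2 and ORMDL3, and the enzymes KDSR and DEGS1. They were compared in HepG2, a human line grown from a liver tumour, which was left untreated or given eliglustat at 20 or 30 µM for 72 h. Eliglustat inhibits glucosylceramide synthase, an enzyme that consumes ceramide. RNA was sequenced from 3 libraries in each of the 3 groups, all from the same line, and the labels give no time for the untreated cells and do not say whether they received the water in which the drug was dissolved. The series text also mentions a further incubation after the treatment, and whether it applies to the cells used for RNA is not stated, so the time from first dose to harvest is uncertain. Nothing in them states that the 3 libraries of a group are separate cultures. The p-values below therefore speak only of spread among these libraries, part of which may be technical.

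Sphingolipids are built from long-chain bases, and serine palmitoyltransferase makes them in the endoplasmic reticulum by joining serine to palmitoyl-CoA. The enzyme pairs SPTLC1 with either SPTLC2 or SPTLC3, gains activity from a small subunit such as SPTSSA, and is held back by ORMDL proteins when ceramide is plentiful. SPTLC3 is known to widen the range of acyl-CoAs that the enzyme accepts and so the chain lengths it makes. KDSR then reduces the ketone product, a ceramide synthase adds a fatty acid, and DEGS1 places the double bond that turns dihydroceramide into ceramide. The liver is a main source of the ceramide and sphingomyelin carried on lipoproteins.

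Library depth ran from 21103757 to 26782810 counts in genes, and 17623 genes, all 9 members among them, had enough counts to be tested. Levels are printed as CPM, a gene's counts over the TMM-scaled size of its library, for each library or as mean ± SD over n = 3 libraries. A change is the log2 change ± SE from edgeR's quasi-likelihood test over all 9 libraries, with Benjamini-Hochberg adjusted p over all genes tested, and a gene rose or fell only where that p was under 0.05. All 9 hepatocyte markers were above 1 CPM in every library, while the leukocyte gene PTPRC and the fibroblast genes COL1A2 and DCN had 0 counts. The summed hepatocyte markers were at 31592 to 32568 CPM in controls, 35079 to 35520.0 at 20 µM and 39516 to 39899.6 at 30 µM. APOB carried the higher sum at 30 µM (19949.8 ± 296 CPM in controls and 27773 ± 419.8 at 30 µM, SD, n = 3), while of the 9 markers 3 rose (APOB, TTR and SERPINA1), 4 fell (ALB, AFP, FGB and HNF4A) and 2 did not pass, with a median log2 change of -0.04. The summed leukocyte markers, nearly all from LYZ, were at 449.6 to 496, 437 to 474 and 636 to 667 CPM, the fibroblast markers at no more than 3.51 CPM and the endothelial ones at no more than 6.34 CPM. Messenger RNAs of the mitochondrial genome took 3.43 ± 0.508%, 3.66 ± 0.177% and 5.40 ± 0.329% of counts in the 3 groups (n = 3). The part of these shifts in the results below was not tested. In bulk RNA, fewer cells of a kind and less RNA per cell cannot be told apart.

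At 20 µM, 5 of the 9 genes rose (SPTLC2, SPTLC3, SPTSSA, ORMDL3 and KDSR), none fell and 4 did not pass the test, where 34.2% of all genes tested passed, 17.2% of them upward. At 30 µM, 6 rose (SPTLC2, SPTSSA, ORMDL2, ORMDL3, KDSR and DEGS1), SPTLC3 fell, and SPTLC1 and ORMDL1 did not pass, where 60.8% of all genes passed, 29.5% upward and 31.3% downward. Between the doses 8 of the 9 differed, 7 higher at 30 µM and SPTLC3 lower, against 57.0% of all genes (28.0% higher and 28.9% lower). The libraries of the 2 groups compared did not overlap for 6, 7 and 8 of the 9 genes in these comparisons, and for 44.5%, 65.0% and 61.1% of all genes tested. The median log2 change of the 9 genes was 0.23, 0.57 and 0.34 in these comparisons, and that of all genes tested was 0.01, -0.04 and -0.03. Both comparisons with control use the same control libraries, so they are not independent of each other. With so many genes past the test at 30 µM, the count of members is not itself a mark of the pathway, and the sizes and directions of single members follow.

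**Figure D1:**
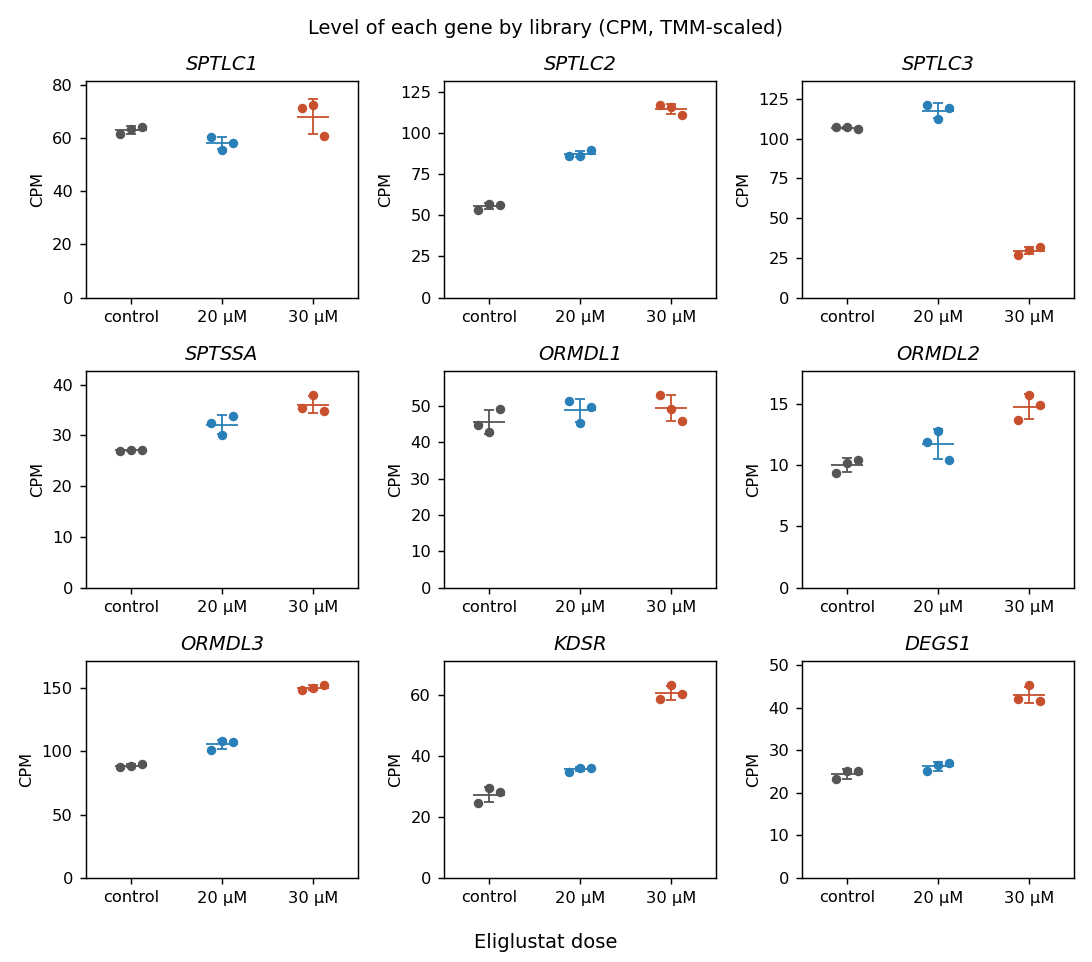
Level of each of the 9 genes in CPM (y axis, from 0) in every library (points) of the untreated, 20 µM and 30 µM groups (x axis), with the mean as a horizontal line and the SD as a bar. SPTLC3 stands at 106 to 121 CPM in the control and 20 µM libraries and at 26.9 to 31.6 CPM at 30 µM, while SPTLC2, ORMDL3 and KDSR are higher at each dose than in the group before it.

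SPTLC2, a partner of SPTLC1 in the enzyme, rose at both doses. It was at 53.4, 57.0 and 56.0 CPM in the 3 control libraries, at 86.2, 85.9 and 89.6 CPM at 20 µM and at 117, 116 and 111 CPM at 30 µM. Each group lay wholly above the one with less drug. SPTLC2 rose by log2 0.65 ± 0.0433 at 20 µM (1.57-fold, edgeR adjusted p = 7.59e-14) and by 1.05 ± 0.043 at 30 µM (2.07-fold, adjusted p = 1.40e-20). From 20 to 30 µM it rose by a further 0.40 ± 0.0417 (adjusted p = 6.80e-10). On GRCh38 (GENCODE 29), the gene lies at chromosome 14: 77505997-77616773 on the minus strand.

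SPTLC3, the alternative partner of SPTLC1, went the other way at the higher dose. It was at 107, 107 and 106 CPM in controls, at 121, 112 and 119 CPM at 20 µM and at 26.9, 30.1 and 31.6 CPM at 30 µM. The 30 µM libraries lay far below all 6 others, while the 20 µM libraries lay slightly above the controls. The log2 change at 30 µM was -1.85 ± 0.0502 against control (3.60-fold lower, edgeR adjusted p = 1.67e-25) and -1.99 ± 0.0502 against 20 µM (3.97-fold lower, adjusted p = 3.67e-26). It was the only one of the 9 genes that fell in any comparison. The rise at 20 µM was small, 0.14 ± 0.0448 or 1.10-fold (adjusted p = 0.0129), and did not pass without 20 µM library 1 (adjusted p = 0.0691) or without 20 µM library 3 (0.0598). SPTLC3 lies at chromosome 20: 13008979-13169103 on the plus strand.

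SPTLC1, the subunit common to both forms of the enzyme, stayed within a narrow range. It was at 61.4, 63.3 and 64.3 CPM in controls, at 60.3, 55.6 and 58.3 CPM at 20 µM and at 71.2, 72.4 and 60.7 CPM at 30 µM. Library 3 of the 30 µM group sat just below the controls, while the other 30 µM libraries lay above them. Neither dose passed the test against control (log2 -0.12 ± 0.0545, adjusted p = 0.101, and 0.11 ± 0.0542, adjusted p = 0.0761). Without 30 µM library 3 the value was 0.19 with an edgeR adjusted p = 0.00202, and with library size alone as scaling it was -0.10. Between the doses SPTLC1 was higher at 30 µM by 0.23 ± 0.0546 (adjusted p = 6.40e-04), a call lost with library size alone (log2 0.04, adjusted p = 0.62). The gene lies at chromosome 9: 92000087-92115384 on the minus strand. Of the 75-base stretches in its annotated transcripts, 2.84% also occur in transcripts of other genes, which is a limit for its counts and for ratios to it.

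Ratios taken within a library do not depend on how libraries are scaled to each other. They give the balance of the messages of the 2 partners of SPTLC1, not of the proteins. SPTLC3 had 2.00, 1.87 and 1.90 counts for each SPTLC2 count in the control libraries. The ratio was 1.40, 1.31 and 1.33 at 20 µM and 0.230, 0.260 and 0.284 at 30 µM. The groups did not overlap, and SPTLC2 had more counts than SPTLC3 only in the 30 µM libraries. Relative to SPTLC2, SPTLC3 was 1.43-fold lower at 20 µM and 7.47-fold lower at 30 µM than in controls. By exact permutation, two-sided, each of these gave p = 0.1, the smallest value that 3 against 3 libraries allow (0.127 adjusted over the 33 ratio comparisons made).

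**Figure D2:**
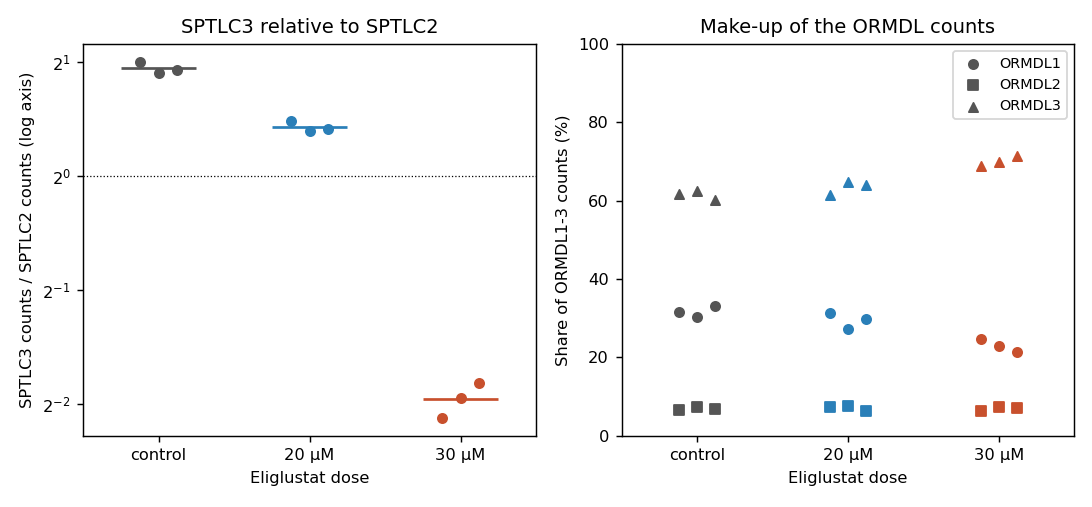
Left, counts of SPTLC3 divided by counts of SPTLC2 in each library (y axis, log scale, dotted line at equal counts) by group (x axis), with group means as lines. Right, share of each ORMDL gene in the summed counts of ORMDL1, ORMDL2 and ORMDL3 in percent. The SPTLC3 to SPTLC2 ratio averages 1.92 in controls and 0.258 at 30 µM, and the ORMDL3 share is 68.9% or more in the 30 µM libraries against 62.4% or less in controls.

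Measured per kilobase of exon, SPTLC3 was the more abundant of the pair in controls, at 12.5 ± 0.0147 CPM per kb against 6.07 ± 0.202 for SPTLC2 (SD, n = 3). At 30 µM the order was turned, with 3.47 ± 0.278 for SPTLC3 and 12.5 ± 0.323 for SPTLC2. Their levels per kb summed to 18.6 ± 0.196 in controls, 23.3 ± 0.646 at 20 µM and 16.0 ± 0.163 at 30 µM. Against SPTLC1, the counts of SPTLC2 alone went from 0.880 ± 0.0173 in controls to 1.50 ± 0.0646 at 20 µM and 1.69 ± 0.124 at 30 µM. The counts of both partners together went from 2.57 ± 0.042 to 3.52 ± 0.0789 and then to 2.13 ± 0.193 per SPTLC1 count, a ratio added after the data were seen. The groups did not overlap in either ratio, and each pair of groups gave p = 0.1 in the exact permutation test, again the smallest possible.

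SPTSSA, which raises the activity of the large subunits, rose moderately at both doses. It was at 27.0, 27.1 and 27.2 CPM in controls, at 32.5, 30.1 and 33.8 CPM at 20 µM and at 35.4, 37.9 and 34.7 CPM at 30 µM. The groups did not overlap. The log2 change was 0.24 ± 0.061 at 20 µM (edgeR adjusted p = 0.00172) and 0.41 ± 0.0608 at 30 µM (adjusted p = 4.95e-07). The step between the doses, 0.16 ± 0.0601 (adjusted p = 0.0194), was lost with upper-quartile scaling (0.217) and with library size alone (log2 -0.03, adjusted p = 0.71). It was also lost without 20 µM library 2 (0.123) or 30 µM library 2 (0.121). SPTSSB, the other small subunit, had at most 0.124 CPM in any library and was not tested. SPTSSA lies at chromosome 14: 34432789-34462356 on the minus strand.

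Among the inhibitors, ORMDL3 rose at both doses, ORMDL2 at 30 µM, and ORMDL1 at neither. ORMDL3 was at 87.3, 88.3 and 89.6 CPM in controls, at 101, 108 and 107 CPM at 20 µM and at 148, 150.1 and 152 CPM at 30 µM. Its groups were fully apart, with log2 changes of 0.25 ± 0.0394 at 20 µM (edgeR adjusted p = 5.08e-06) and 0.76 ± 0.039 at 30 µM (1.70-fold, adjusted p = 5.64e-18). The step between the doses was 0.52 ± 0.0387 (adjusted p = 2.10e-13). ORMDL3 lies at chromosome 17: 39921041-39927601 on the minus strand.

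ORMDL2 was at 9.33, 10.2 and 10.4 CPM in controls, at 11.9, 12.8 and 10.4 CPM at 20 µM and at 13.7, 15.7 and 14.9 CPM at 30 µM. The 20 µM group touched the controls, with log2 0.23 ± 0.0977 (edgeR adjusted p = 0.069; 0.0239 without 20 µM library 3). At 30 µM the change was 0.57 ± 0.0963 against control (1.48-fold, adjusted p = 4.83e-06) and 0.34 ± 0.0952 against 20 µM (0.00281, but 0.197 with library size alone). ORMDL2 lies at chromosome 12: 55817919-55821879 on the plus strand and its exons overlap those of DNAJC14 on the minus strand. Of the 75-base stretches in its annotated transcripts, 36.9% also occur in transcripts of other genes on either strand, so its counts are uncertain.

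ORMDL1 was at 44.9, 42.9 and 49.2 CPM in controls, at 51.4, 45.4 and 49.7 CPM at 20 µM and at 53.0, 49.3 and 45.8 CPM at 30 µM. The groups overlapped in every comparison, with log2 changes of 0.10 ± 0.0601 at 20 µM (edgeR adjusted p = 0.234), 0.11 ± 0.0603 at 30 µM (0.116) and 0.01 ± 0.0602 between the doses (0.87). At 30 µM against control it passed without 30 µM library 3 (0.0289) or control library 3 (0.0321), at log2 0.16 each time. With library size alone it was lower at 30 µM than at 20 µM (log2 -0.18, adjusted p = 0.0149). ORMDL1 lies at chromosome 2: 189770323-189784371 on the minus strand, where its exons overlap those of PMS1 on the other strand (0.72% of 75-base stretches shared), so its counts are uncertain too.

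The shares of the ORMDL messages are given with the limit that the ORMDL1 and ORMDL2 counts are uncertain and that the test cannot pass 0.05. ORMDL3 held 61.7%, 62.4% and 60.1% of the counts of the ORMDL genes in control libraries and 68.9%, 69.8% and 71.5% at 30 µM, without overlap (p = 0.1 in the exact permutation test). ORMDL1 held 31.7%, 30.3% and 33.0% in controls and 24.7%, 22.9% and 21.5% at 30 µM, also without overlap (exact permutation p = 0.1). ORMDL2 held 6.22% to 7.72% in all libraries, and its groups overlapped. The summed ORMDL counts per SPTLC1 count were 2.29 ± 0.0456 without drug, 2.85 ± 0.135 at 20 µM and 3.16 ± 0.296 at 30 µM (SD, n = 3). Both dosed groups lay above the controls and overlapped each other.

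KDSR, which reduces the ketone that serine palmitoyltransferase makes, had the largest rise of the 9 genes at 30 µM. It was at 24.5, 29.4 and 28.1 CPM in controls, at 34.9, 36.0 and 36.1 CPM at 20 µM and at 58.7, 63.3 and 60.6 CPM at 30 µM. The groups were fully apart. The log2 change was 0.39 ± 0.0612 at 20 µM (1.31-fold, edgeR adjusted p = 5.01e-06) and 1.16 ± 0.0594 at 30 µM (2.23-fold, adjusted p = 6.37e-18). KDSR lies at chromosome 18: 63327726-63367510 on the minus strand, overlapped on the other strand by an antisense RNA with 47 counts in all 9 libraries together. Of its 75-base stretches, 1.15% also occur in transcripts of other genes.

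DEGS1, the desaturase that completes ceramide, did not pass the test at 20 µM and rose at 30 µM. It was at 23.2, 25.2 and 25.2 CPM in controls, at 25.1, 26.5 and 27.1 CPM at 20 µM and at 42.2, 45.3 and 41.7 CPM at 30 µM. The 20 µM libraries overlapped the controls, with log2 0.10 ± 0.0626 (edgeR adjusted p = 0.244), while all 30 µM libraries lay above both groups, with log2 0.81 ± 0.0607 against control (1.76-fold, adjusted p = 1.18e-13). From 20 to 30 µM DEGS1 rose by 0.72 ± 0.0605 (adjusted p = 3.86e-12). Relative to KDSR, DEGS1 was below the control ratio at both doses, at 0.900 ± 0.0474 counts per KDSR count in controls, 0.736 ± 0.0158 at 20 µM and 0.708 ± 0.0164 at 30 µM. These groups did not overlap (exact permutation p = 0.1 for each pair). DEGS2, the related desaturase that also hydroxylates, had at most 0.287 CPM and was not tested. DEGS1 lies at chromosome 1: 224175756-224193441 on the plus strand.

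**Figure D3:**
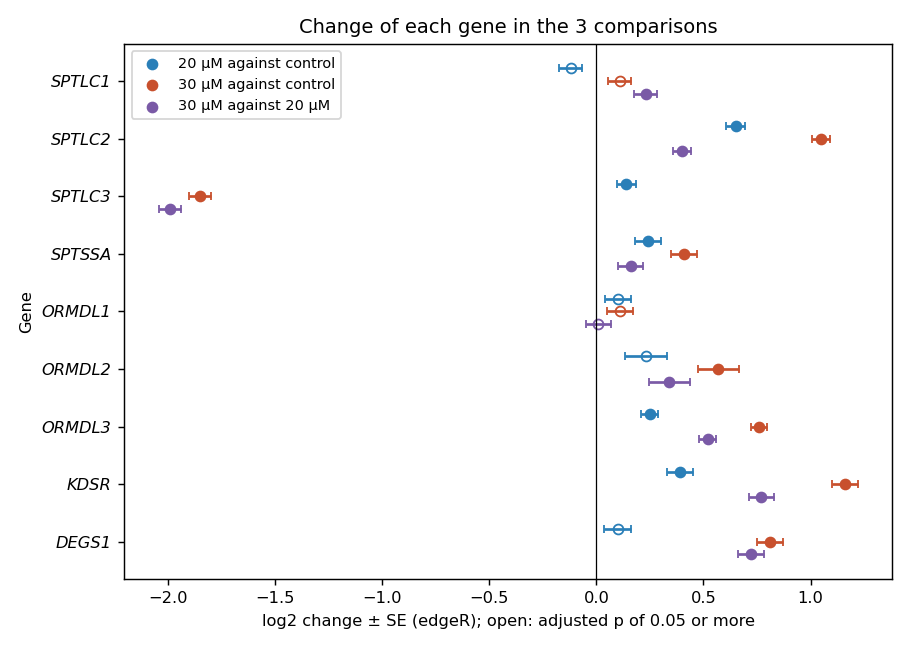
Log2 change with its SE (x axis, edgeR) of each of the 9 genes (y axis) for 20 µM against control, 30 µM against control and 30 µM against 20 µM. Open points did not pass the test, and SPTLC3 stands alone on the left at -1.85 and -1.99.

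Per kilobase of exon, ORMDL3 was the most abundant of the 9 messages in every group, at 23.6 ± 0.301 CPM per kb without drug, 28.0 ± 1.01 at 20 µM and 40.0 ± 0.566 at 30 µM (SD, n = 3). In controls SPTLC3 came next, followed by ORMDL1 at 11.5 ± 0.812. With all exons joined as the length, SPTSSA (9.76 ± 0.0228), DEGS1 (9.75 ± 0.439) and SPTLC1 (9.72 ± 0.228) did not differ beyond their spread. SPTLC2, ORMDL2 (3.55 ± 0.204) and KDSR (2.93 ± 0.274) were lowest. At 30 µM DEGS1 was second with 17.1 ± 0.779 and SPTLC3 was last. SPTLC1 has a long annotated exon set, and with its longest protein-coding transcript as the length it was second in every group, so its place in this order is uncertain. Other places moved with that length too. In controls DEGS1 was then at 11.7 CPM per kb, SPTSSA at 9.76, KDSR at 5.01 and ORMDL2 at 4.66. At 30 µM SPTSSA went from rank 3 to 6 and DEGS1 from rank 2 to 3, while ORMDL3 stayed first and SPTLC3 last.

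RefSeq promoter windows (GRCh38.p14, 250 bases before to 50 after a start site) were given for 8 of the 9 genes, in 12 windows, and SPTLC3 has no entry. The stretches upstream of the start that lie outside GENCODE 29 exons are shown for SPTLC2 and ORMDL3 (the outermost of its 3 starts), which rose at both doses, and for SPTLC1, which passed at neither. Capitals mark CCAAT and TGACG, the core of the cyclic AMP response element, read on either strand.
SPTLC2, chr14:77616774-77616887, minus strand: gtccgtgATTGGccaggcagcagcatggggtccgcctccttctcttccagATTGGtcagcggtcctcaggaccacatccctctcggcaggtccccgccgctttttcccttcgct
ORMDL3, chr17:39927602-39927741, minus strand: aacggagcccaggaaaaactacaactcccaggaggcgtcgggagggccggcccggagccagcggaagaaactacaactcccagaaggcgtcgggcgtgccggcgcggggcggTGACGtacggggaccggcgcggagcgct
SPTLC1, chr9:92115414-92115663, minus strand: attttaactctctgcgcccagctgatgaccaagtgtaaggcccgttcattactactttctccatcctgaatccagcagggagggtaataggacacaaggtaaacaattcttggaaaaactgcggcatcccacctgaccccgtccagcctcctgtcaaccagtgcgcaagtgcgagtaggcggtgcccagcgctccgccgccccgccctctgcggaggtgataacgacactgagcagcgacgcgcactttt

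The SPTLC2 stretch holds 2 CCAAT matches, the ORMDL3 stretch 1 TGACG match, and the SPTLC1 stretch 0 of either. Over whole 300-base windows, both strands, CCAAT occurred for 4 of the 8 genes (SPTLC2, SPTSSA, ORMDL1 and ORMDL2). It was in 4 of their 12 windows and in 34.6% of the 35116 windows of all genes. TGACG occurred for 4 genes (SPTSSA, ORMDL1, ORMDL2 and ORMDL3), in 5 of the 12 windows, and in 24.6% of all windows. KDSR, which rose at both doses, and DEGS1, which rose at the higher dose, had 0 matches of CCAAT and of TGACG. ORMDL1, which passed at neither dose, had 2 matches of each. The stretches shown therefore do not stand for the other genes. SPTSSA, which rose at both doses, also had 2 matches of each. ORMDL2, which rose at 30 µM, had 3 of CCAAT and 1 of TGACG, and SPTLC1 had 0 of either in its whole window. Whether matches go with the changes was not tested. The GC box GGGCGG occurred for all 8, in 10 of the 12 windows, and in 45.0% of all windows. Only the window counts are on the same footing as the shares of all windows. The E-box CACGTG (7.26% of all windows), the full element TGACGTCA (1.85%), the AP-1 letters TGANTCA (7.71%), the sterol element TCACNCCAC (1.13%) and the amino acid response letters TGATGNAA (3.62%) were in 0 of the 12 windows. TGACGTCA contains TGACG, so these searches overlap. A match describes letters in a window and no more.

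The genes around this step give its setting, from lists chosen with earlier results of these data known. Among relatives of serine palmitoyltransferase and its partners, 2 of 3 tested rose at 30 µM and 1 fell (60.8% of all genes passed). RTN4, an endoplasmic reticulum membrane protein that has been reported to bind the enzyme, was at 276 ± 1.04 CPM without drug, 285 ± 9.09 at 20 µM and 519 ± 11.0 at 30 µM (SD, n = 3; log2 0.91 at 30 µM, edgeR adjusted p = 3.28e-22). GCAT, a mitochondrial enzyme of the same protein family that acts on glycine, fell from 35.6 ± 1.27 to 17.9 ± 1.00 CPM (log2 -0.99, adjusted p = 8.21e-15). ALAS1, the family member that starts haem synthesis, fell at 20 µM (log2 -0.14, adjusted p = 0.0414) and rose at 30 µM (0.16, adjusted p = 0.0113).

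Genes that supply serine moved in both directions at 30 µM, where 7 of 13 tested rose, 5 fell and the median log2 change was 0.29 (all genes: 60.8% passed, 29.5% higher and 31.3% lower, median -0.04). PHGDH, the entry enzyme of serine synthesis, was at 258 ± 6.38 CPM in controls, 307 ± 10.7 with 20 µM and 201 ± 3.95 with 30 µM (SD, n = 3). It rose by log2 0.26 at 20 µM (edgeR adjusted p = 3.07e-07) and had log2 -0.36 at 30 µM (adjusted p = 7.73e-11). The exchanger SLC1A4 had log2 0.20 and -0.38, and SHMT1, which interconverts serine and glycine in the cytosol, had -0.15 and -1.09, all past the test. The amino acid carrier SLC38A2 rose from 709.8 ± 20.1 to 3224 ± 80.3 CPM (4.54-fold at 30 µM, adjusted p = 2.40e-32), SLC38A1 by log2 0.93, and SERINC1, a membrane protein named for serine incorporation, by 1.20.

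For palmitoyl-CoA, the other substrate, 9 of 12 genes tested rose at 30 µM and 3 fell (median log2 0.40), where 29.5% of all genes rose and 31.3% fell. The long-chain acyl-CoA synthetases ACSL3 and ACSL5 rose by log2 1.26 (edgeR adjusted p = 1.83e-25) and 1.25 (3.29e-23), and ACSL1 by 0.87. ACACB, the acetyl-CoA carboxylase of the mitochondrial surface, fell from 73.0 ± 2.38 to 27.4 ± 1.16 CPM (SD, n = 3, log2 -1.41, adjusted p = 3.25e-21). The other acetyl-CoA carboxylase, ACACA, rose by log2 0.27 (edgeR adjusted p = 1.98e-09) and the fatty acid synthase FASN by 0.62 (8.99e-19).

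**Figure D4:**
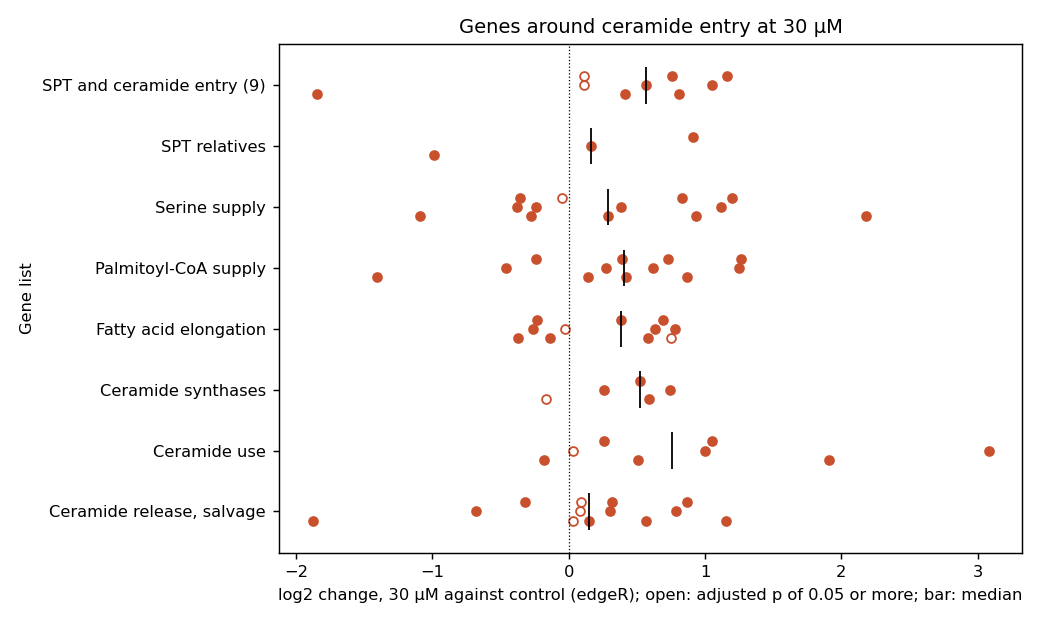
Log2 change at 30 µM against control (x axis, edgeR) of every tested gene (points, open where the test was not passed) in 8 gene lists around ceramide entry (y axis), with each list's median as a bar. The 9 genes of ceramide entry run from -1.85 (SPTLC3) to 1.16 (KDSR) with a median of 0.57, and genes that use ceramide reach 3.08 (SGMS2).

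Downstream, ceramide synthases, which attach the fatty acid between KDSR and DEGS1, had 4 of 5 tested genes higher at 30 µM and none lower (median log2 0.52), against 29.5% and 31.3% of all genes. CERS4 (0.74), CERS5 (0.59) and CERS6 (0.52) led them. Of genes that carry or convert ceramide, 6 of 8 tested rose and 1 fell (median log2 0.75), against the same 29.5% and 31.3%. SGMS2, a sphingomyelin synthase, rose from 6.89 ± 0.867 to 57.9 ± 5.78 CPM (SD, n = 3; log2 3.08, edgeR adjusted p = 1.78e-24). SAMD8, which makes ceramide phosphoethanolamine, rose by 1.05 and UGCG, which encodes the target of the drug, by 1.91, while CERK, a ceramide kinase, had log2 -0.18 (adjusted p = 7.75e-04). The rise of UGCG was thus larger than that of any of the 9 genes of ceramide entry at 30 µM (adjusted p = 3.74e-24). That difference between genes was not tested.

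Among 10138 protein-coding genes of at least 5 CPM on average, those with the most similar course to SPTLC2 over the 9 libraries were RBM47 (Pearson r = 0.999 on log2 CPM), MVP (0.998) and BMPR2 (0.997). MVP was at 46.8 ± 0.927, 73.6 ± 2.53 and 92.8 ± 2.14 CPM in the 3 groups (SD, n = 3). Nearest to SPTLC3 were ALDH6A1, THRB and TRIM65 (0.996 each), of which TRIM65 was at 66.3 ± 0.923, 74.2 ± 3.38 and 30.1 ± 0.582 CPM. The correlation does not compare the size of the changes. At 30 µM against control the log2 changes were -1.11 for ALDH6A1, -0.75 for THRB and -1.14 for TRIM65, against -1.85 for SPTLC3. At 20 µM they were -0.00, 0.01 and 0.16, against 0.14. Nearest to ORMDL3 were MXRA7 and OTUD5 (0.999 each) and HM13 (0.998). KDSR had EVA1A (0.997), and DEGS1 had PLEKHB2 (0.998). SPTLC1 was closest to UBR1 (0.984) and ORMDL1 to CASD1 (0.922). These correlations describe 9 libraries in 3 groups that share the treatment, and high values are common where most genes differ between groups.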

How the data were processed

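Each library came with a file of gene counts as deposited by the authors. The submitters' processing notes list FastQC, STAR 2.7.10a, HTSeq and the build hg38. Neither the annotation release nor the strand setting is given in the sources used here. The labels name polyA RNA, but their protocol describes ribosomal depletion of total RNA. HTSeq's own totals of reads assigned to no single gene, 40.6% to 44.0% per library, were left out.

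A symbol was found for 62639 of 62703 identifiers. Positions and exon lengths are from GENCODE 29 (GRCh38). Low counts were filtered with filterByExpr, libraries scaled by TMM, and the model fitted with edgeR 4.0.16 (robust quasi-likelihood, a mean per group, 17623 genes) in R 4.3.3. The SE is the log2 change divided by the square root of F. Ratios of counts within a library were compared by exact permutation tests (scipy 1.17.1). The fits were tested on simulated data with 200 genes changed (seed 7). In these data 10707 genes passed at 30 µM against control, so the simulation does not check the scaling or the calls where so many genes differ.

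The members, lists and tests were chosen with earlier results of these data known. Named genes are the 9 members, UGCG, up to 3 higher and 3 lower genes per list with the smallest p at 30 µM, and the 3 nearest genes by correlation. The text gives a part of them, and ACACA and FASN were named besides. Alternatives were median-ratio, upper-quartile and library-size scaling, DESeq2 1.42.0, limma 3.58.1 voom, 2 other count filters, only the groups compared, a replicate block, each library left out, and a fit without 3 libraries (control 1, 20 µM library 3, 30 µM library 3) that deviate together. The exon length from the longest protein-coding transcript was added after the data were seen.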

Additional observations from a re-analysis of the deposited data

How the results depend on the processing

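Over 19 other settings, the number of the 9 genes past the test was 4 to 6 at 20 µM against control, 7 to 9 at 30 µM against control and 6 to 8 between the doses. SPTLC2 kept its rise (log2 0.60 to 0.67 at 20 µM and 0.84 to 1.07 at 30 µM), as did KDSR (0.30 to 0.44 and 0.95 to 1.21) and ORMDL3 (0.23 to 0.28 and 0.55 to 0.79), and SPTLC3 kept its fall at 30 µM (-2.06 to -1.79). Scaling by library size alone moved the median of all genes at 30 µM against control by -0.21 and the split of calls from 5192 higher and 5515 lower to 3530 and 8022 (between the doses by -0.193, and from 4942 and 5099 to 3029 and 7690). Upper-quartile factors moved the median by -0.061 and -0.076 and the splits to 4636 and 6225 at 30 µM against control and to 4108 and 6067 between the doses. With library size alone, 4 of the 9 genes were higher and 2 lower between the doses. Under it SPTLC1 and ORMDL1 had log2 -0.10 each at 30 µM against control, and SPTSSA -0.03 and ORMDL1 -0.18 (adjusted p = 0.0149) between the doses. The near-zero ORMDL1 difference between the doses also turned to -0.06 with upper-quartile factors, to -0.00 with at least 50 counts on average, and, with single libraries left out, ran from -0.04 (without 20 µM library 2 or 30 µM library 1) to 0.07. SPTLC1 at 30 µM against control passed with median-ratio factors (0.0312), no low-count filter (0.0449), only the groups compared (0.0452) and without the 3 libraries that deviate together (0.0155). Without those 3, SPTLC3 at 20 µM did not pass (0.0675). ORMDL2 at 20 µM passed with at least 50 counts on average (0.0494). With the longest protein-coding transcript as length, SPTLC3 per SPTLC2 was 2.54, 1.78 and 0.342 in the 3 groups, against 2.06, 1.44 and 0.277. Replicate numbers did not pair the libraries throughout: correlations of the deviations of same-numbered libraries ran from -0.202 (control 3 with 30 µM library 3) to 0.352 (20 µM library 3 with 30 µM library 3), and control 1 correlated best with 30 µM library 3 (0.343). A replicate block gave 5, 7 and 8 of the 9 genes, as without it, and 5952, 10635 and 9955 genes in all against 6020, 10707 and 10041.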

Other observations

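Fatty acid elongation is listed as a whole, and only a part of it makes the very long acyl chains used by some ceramide synthases. It had 5 of 11 tested genes higher and 4 lower at 30 µM against control (median log2 0.38, where 60.8% of all genes passed). ELOVL5 rose by log2 0.63, ELOVL6 by 0.58 and ELOVL1, an elongase of saturated very long chains, by 0.78. ELOVL2 (-0.26), HACD1 (-0.37) and TECR (-0.23), the reductase that closes the elongation cycle, fell.

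Of 13 tested genes that release ceramide or salvage its base, 7 rose and 3 fell at 30 µM (median log2 0.15; 60.8% of all genes passed, 29.5% higher and 31.3% lower). The acid ceramidase ASAH1 (0.87), the sphingosine phosphate phosphatase SGPP1 (1.15) and the acid sphingomyelinase SMPD1 (0.79) rose. ASAH2, the neutral ceramidase, went from 14.6 ± 0.54 CPM without drug to 9.47 ± 0.361 at 20 µM and 3.96 ± 0.286 at 30 µM (SD, n = 3; log2 -1.88 at 30 µM, edgeR adjusted p = 1.51e-16), a fall of about the size of that of SPTLC3. SPHK2, a sphingosine kinase, fell by 0.68 and SMPD4 by 0.32 on the log2 scale.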
